A study of Mus musculus with 18 samples.

Results

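Livers of male mice fed bisphenol A at a low dose were compared with livers of untreated mice on single-colour expression arrays. The comparison uses 12 of the 18 arrays of the series, those titled as low-dose replicates 1 to 6 and control replicates 1 to 6. The study exposed CD-1 mice, an outbred laboratory strain, through a powdered diet for 28 days, and livers were taken at 9 weeks of age. The low-dose mice received an average of 50 µg of bisphenol A per kg of body weight per day (n = 6), and the control mice received the same diet without the compound (n = 6). A high-dose group at 5000 µg per kg per day (n = 6) stayed in the fit, which it shared for the estimate of spread, and is otherwise cited only where it is set against the low dose. The sources describe 1 array per mouse from a fragment of the large liver lobe, and the doses are averages that assume a fixed food intake.

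Bisphenol A is a monomer of polycarbonate plastic and epoxy resin that binds estrogen receptors weakly. The liver conjugates it for excretion, and it is also the organ that turns surplus carbohydrate into fat and cholesterol. In fed liver, insulin and glucose act through the transcription factors SREBP-1c and ChREBP on the genes of fatty acid synthesis, and SREBP-2 acts on those of cholesterol synthesis. Between meals, PPARA drives the genes of fatty acid oxidation and ketone body formation. The purified diet of all groups was rich in starch and sucrose.

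Array brightness differed between the groups before any gene was considered. The 75th percentile of the processed signal averaged 295 ± 44.0 on low-dose arrays and 230 ± 43.1 on control arrays (SD, n = 6 each), a log2 difference of 0.37 (two-sided exact permutation test, p = 0.0303). All levels below are therefore log2 signals after subtraction of each array's own 75th percentile, so a level of 0 is that percentile, and a difference is low dose minus control. The arrays lay on 5 slides with 4 positions each. Slides 2 to 5 held both groups, and low-dose replicate 3 lay on the slide without a control. No pair of arrays was close enough to be 1 library deposited again, since pairs correlated at 0.952 to 0.986. The labels do not say whether cages were shared.

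Markers of the labelled tissue were present. All 17 hepatocyte markers on the array passed the filter on dim probes, 9 of them at a saturated probe, and their summed linear level, in multiples of the 75th percentile, ran from 2161 to 2902 in low-dose livers and from 2473 to 3612 in control livers. Sums of different lists come from different probes and were not set against each other. The 15 Kupffer cell and macrophage markers summed to 86.2 to 174 in low-dose livers and 78.4 to 162 in control livers, and the 6 of 10 exocrine pancreas markers that passed the filter summed to 5.72 to 8.39 and 5.88 to 9.20. Among 10 adipocyte markers, Adipoq, Lep, Plin1, Retn and Ucp1 did not pass the filter. The 5 that passed it summed to 5.56 to 8.83 in low-dose livers and 6.40 to 11.6 in control livers. The hepatocyte sums include the saturated probes, so their difference between groups is not a measured size. The 9 saturated hepatocyte markers had a median log2 difference of -0.38, and the 8 others one of -0.02. In whole tissue, fewer cells of a type and less RNA per cell cannot be told apart.

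In low-dose livers 43 of 17681 tested genes differed from control livers at an adjusted p under 0.05 in the limma fit, which is 0.243% of genes tested. Of these, 27 rose (0.153%) and 16 fell (0.0905%). The split of rises and falls moved with the processing. It was 34 and 12 under quantile normalisation, 7 and 1 under median scaling, 7 and 0 under normexp background correction, 39 and 11 in the deposited value table, 7 and 2 with no filter on dim probes, 11 and 4 with the mean of all kept probes and 2 and 0 with slide as a fixed block. Falls took a larger share with probes well above background on all 18 arrays (40 and 30), with only these groups in the fit (42 and 37), with trend and robust eBayes (40 and 32) and with array weights (68 and 75). The rises had a median log2 difference of 1.18, with a range of 0.37 to 3.97, and the falls had a median of -0.77, with a range of -0.39 to -1.57. In 37 of the 43 the lowest and highest mice of the groups did not overlap (25 rises and 12 falls), against 1.77% of all genes tested. The median difference over all genes was -0.02 and the median standard error 0.17. At an unadjusted p under 0.05, 2047 genes (11.6%) passed, 887 of them higher (5.02%) and 1160 lower (6.56%).

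The number of calls depended on how slide and brightness were treated. With slide as a fixed block 2 genes passed, Reck and Pde4b, and with array brightness as a covariate none passed in limma (smallest adjusted p = 0.114, with 1211 genes at an unadjusted p under 0.05). All 43 genes kept their sign in both of those fits, and each had the same sign on all 4 slides that held both groups. With slide as a random block 53 genes passed, 33 higher and 20 lower, and these included all 43.

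**Figure D1:**
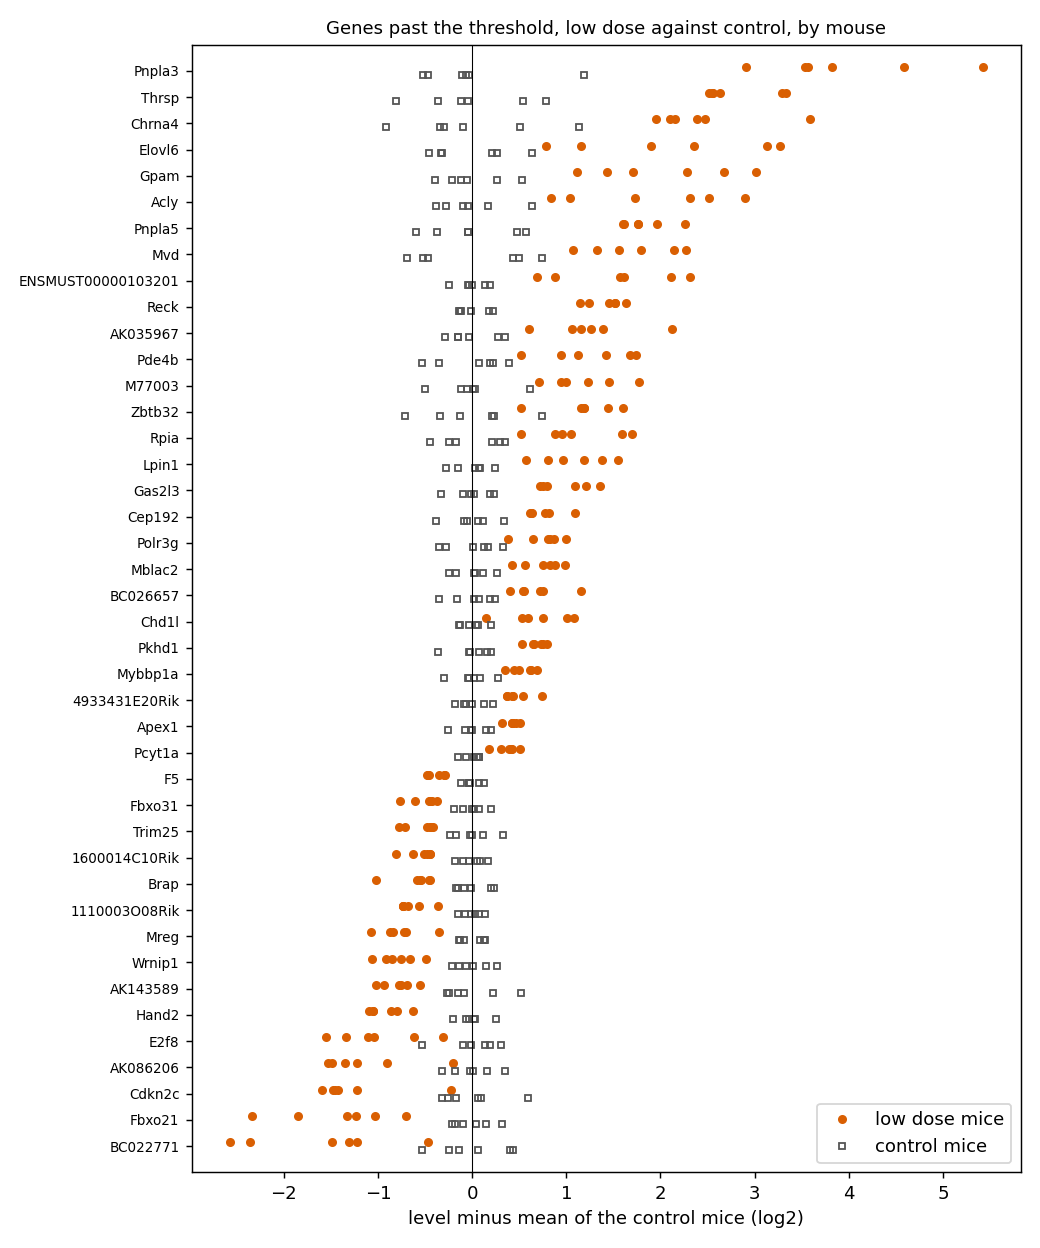
Level of 42 of the 43 called genes in every mouse, as log2 signal minus the mean of the control mice, ordered by difference (filled circles, 6 low-dose mice; open squares, 6 control mice). Pnpla3 has the largest log2 difference at 3.97, while F5 fell by 0.39 with little spread in either group.

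Genes of fat and sterol production were among the largest rises, and the promoters of 4 of them are shown because Pnpla3 and Pnpla5 are neighbours and all 4 pass the test. Each sequence gives the 250 bases before the start of the gene, 5′ to 3′ on the gene's strand, from RefSeq on GRCm38.p6. Pnpla3 lies at chr15:84167566-84167815 on the plus strand, Pnpla5 at chr15:84123176-84123425 on the minus strand, Thrsp at chr7:97417551-97417800 on the minus strand, and Mvd at chr8:122443423-122443672 on the minus strand. Capitals mark matches on either strand to CACGTG, the core of an E-box, and to CCAAT, the letters bound by NF-Y, which read ATTGG where the match is on the other strand.
Pnpla3: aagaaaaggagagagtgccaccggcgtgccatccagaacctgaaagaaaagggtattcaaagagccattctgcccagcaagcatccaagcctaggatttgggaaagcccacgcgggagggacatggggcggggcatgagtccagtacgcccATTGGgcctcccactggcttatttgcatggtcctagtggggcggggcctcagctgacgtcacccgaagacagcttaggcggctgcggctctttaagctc
Pnpla5: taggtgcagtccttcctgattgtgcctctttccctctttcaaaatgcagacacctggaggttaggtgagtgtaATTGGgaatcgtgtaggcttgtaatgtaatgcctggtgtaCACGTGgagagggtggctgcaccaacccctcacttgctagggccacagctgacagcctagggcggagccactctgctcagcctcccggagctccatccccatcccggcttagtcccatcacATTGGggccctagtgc
Thrsp: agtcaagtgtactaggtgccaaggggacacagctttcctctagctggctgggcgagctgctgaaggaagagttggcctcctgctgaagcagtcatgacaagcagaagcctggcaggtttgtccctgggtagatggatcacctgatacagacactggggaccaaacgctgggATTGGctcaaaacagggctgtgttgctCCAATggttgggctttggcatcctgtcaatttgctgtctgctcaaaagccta
Mvd: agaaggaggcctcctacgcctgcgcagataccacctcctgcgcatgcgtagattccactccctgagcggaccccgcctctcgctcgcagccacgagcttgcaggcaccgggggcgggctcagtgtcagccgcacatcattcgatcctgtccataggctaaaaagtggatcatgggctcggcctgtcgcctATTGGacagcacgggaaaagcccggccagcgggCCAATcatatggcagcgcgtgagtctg

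The starts of Pnpla3 and Pnpla5 lie 44641 bases apart. CCAAT occurred in promoters of 9 of the 22 genes that rose and had one in the table and of 5 of the 11 such genes that fell, against 37.5% of 27025 genes and 33.8% of their 32851 promoters of the same length. CACGTG occurred in 2 of the 22, those of Pnpla5 and Apex1, and in 1 of the 11, that of Trim25, against 6.86% of genes and 6.02% of promoters. TCACNCCAC, a form of the sterol regulatory element, occurred in the promoter of Pcyt1a among the 22 and in none of the 11, against 1.22% of genes and 1.05% of promoters. These matches describe letters in a short window only.

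Pnpla5, a lipase that can hydrolyse triglyceride, had levels of 1.36, 1.52 and 2.02 (lowest, median and highest) in low-dose livers, against -0.83, -0.28 and 0.34 in control livers. The groups did not overlap, and the log2 difference was 1.82 ± 0.28 (SE, adjusted p = 0.0209). Elovl6, which lengthens palmitate, had levels of 4.55, 5.88 and 7.02 in low-dose livers, against 3.30, 3.70 and 4.39 in control livers. The lowest low-dose mouse stood just above the highest control, and the log2 difference was 2.10 ± 0.39 (adjusted p = 0.0437), running from 0.37 to 3.14 across slides. Gpam, which starts glycerolipid synthesis at the mitochondrial outer membrane, had levels of 0.48, 1.37 and 2.39 in low-dose livers, against -1.02, -0.71 and -0.10 in control livers. A second probe, listed under the accession M77003 and described as the same acyltransferase, lies 3200 bases away on the array's mm8 coordinates and rose as well (1.19 ± 0.20, adjusted p = 0.0258, against 2.04 ± 0.33 and 0.0223 for Gpam). This gene is therefore counted under 2 names among the 43.

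Acetyl-CoA carboxylase 1, which makes malonyl-CoA for fat synthesis, was split in the same way. The name Acaca covers 3 kept probes with differences of 0.84, 1.35 and 1.81, and the transcript ENSMUST00000103201, described as the same gene, covers 2 more with 1.53 and 1.99. All 5 were higher. The gene was called under the transcript name, with levels of 1.93, 2.84 and 3.56 in low-dose livers, against 0.99, 1.23 and 1.44 in control livers (1.53 ± 0.25, adjusted p = 0.0236), and not as Acaca (0.84 ± 0.29, adjusted p = 0.250). Across the 21 members of the fatty acid synthesis list, 19 were higher and 4 rose past the threshold (0.153% of all genes did), with a median of 0.67 against -0.02 over all genes. Within slides the list's median difference ran from 0.097 to 1.05. In the median over members for each mouse, the lowest low-dose mouse stood at 0.22 and the highest control at 0.21. That median was highest in low-dose replicate 1, at 1.05, and lowest in replicate 4.

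Further along the glycerolipid route, Lpin1, a phosphatidate phosphatase that supplies diacylglycerol, had levels of 1.89, 2.39 and 2.86 in low-dose livers, against 1.03, 1.36 and 1.55 in control livers (1.08 ± 0.21, adjusted p = 0.0437). The groups did not overlap. Pcyt1a, the regulated enzyme of phosphatidylcholine synthesis, had the smallest rise, with levels of 0.51, 0.72 and 0.83 in low-dose livers, against 0.17, 0.36 and 0.40 in control livers (0.37 ± 0.07, adjusted p = 0.0484). The 20 triglyceride synthesis and lipid droplet genes as a list were split, 9 higher and 11 lower, with a median of -0.09 (0.11 with normexp background correction). In that list Gpam and Lpin1 rose, while Plin2, a coat protein of lipid droplets, had levels of 7.30, 7.61 and 7.70 in low-dose livers, against 7.78, 8.19 and 8.28 in control livers (-0.54 ± 0.15, adjusted p = 0.145, not past the threshold).

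Mvd, which makes isopentenyl diphosphate from mevalonate, was the called member of the cholesterol list, with levels of 1.66, 2.26 and 2.85 in low-dose livers, against -0.11, 0.57 and 1.33 in control livers (1.70 ± 0.33, adjusted p = 0.0437). Of 26 cholesterol synthesis and uptake genes, 23 were higher, 12 of these at an unadjusted p under 0.05 (5.02% of all genes passed in that direction), with a median of 0.45. The per-mouse median over members overlapped between groups, from 0.014 to 0.71 in low-dose livers and from -0.53 to 0.42 in control livers. Lss, the lanosterol synthase, had 0.86 ± 0.20 and Stard4, a sterol carrier, 0.56 ± 0.13 (adjusted p = 0.0756 for each, not past the threshold). Stard4 levels did not overlap, at 2.91 to 3.11 in low-dose livers and 2.05 to 2.77 in control livers.

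Around glucose, Rpia, an isomerase of the pentose phosphate pathway, had levels of 0.99, 1.47 and 2.16 in low-dose livers, against 0.02, 0.49 and 0.82 in control livers (1.11 ± 0.21, adjusted p = 0.0437). No member of the glycolysis list was called, and its 21 members were 10 higher and 11 lower with a median of -0.0031. Pfkfb1, which sets the level of fructose 2,6-bisphosphate, had 0.55 ± 0.16, the widespread glucose transporter Slc2a1 -0.46 ± 0.13, and G6pc, which releases glucose from the liver, 0.71 ± 0.26 (adjusted p = 0.160, 0.138 and 0.268, none past the threshold). Got1, the cytosolic aspartate aminotransferase, missed the threshold narrowly (0.99 ± 0.20, adjusted p = 0.0505), with levels of 4.98, 5.62 and 6.43 in low-dose livers, against 4.25, 4.84 and 4.95 in control livers. The groups did not overlap for Got1, and its difference ran from 0.04 to 1.78 across slides.

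Outside metabolism, the rises included a receptor subunit, a protease inhibitor and a phosphodiesterase. Chrna4, the alpha 4 subunit of the neuronal nicotinic acetylcholine receptor, had levels of 0.59, 0.91 and 2.23 in low-dose livers, against -2.27, -1.56 and -0.23 in control livers (2.44 ± 0.33, adjusted p = 0.0100). Reck, a membrane-anchored inhibitor of matrix metalloproteinases, had levels of -0.33, 0.01 and 0.16 in low-dose livers, against -1.61, -1.54 and -1.25 in control livers (1.42 ± 0.16). Its adjusted p of 0.00125 was the smallest of the comparison, and it had a single kept probe. Pde4b, which degrades cyclic AMP, had levels of 0.03, 0.78 and 1.25 in low-dose livers, against -1.02, -0.35 and -0.10 in control livers (1.24 ± 0.21, adjusted p = 0.0258). For all 3 of these genes the groups did not overlap. In the cyclic AMP list Pde4b was the 1 called member of 18, and the list was split evenly, 9 higher and 9 lower, with a median of -0.0012.

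The other named genes that rose have roles in transcription, the cytoskeleton, cilia and the genome. Polr3g, a subunit of RNA polymerase III, had levels of 0.67, 1.11 and 1.29 in low-dose livers, against -0.06, 0.35 and 0.61 in control livers (0.76 ± 0.13, adjusted p = 0.0258). Mblac2, a metallo-beta-lactamase domain protein, had levels of 1.16, 1.53 and 1.73 in low-dose livers, against 0.49, 0.77 and 1.01 in control livers (0.74 ± 0.13, adjusted p = 0.0258). Probes of these 2 genes lie 16925 bases apart on chromosome 13 of mm8, and neither gene's groups overlapped. Cep192, a centrosome scaffold, rose by 0.76 ± 0.13 and Gas2l3, a linker of actin and microtubules, by 0.99 ± 0.19 (adjusted p = 0.0256 and 0.0437), and with normexp background correction the log2 fold change was 0.0096 for Cep192 and -0.13 for Gas2l3. Pkhd1, which encodes fibrocystin of the bile duct cilium, had levels of 0.96, 1.12 and 1.22 in low-dose livers, against 0.06, 0.45 and 0.63 in control livers (0.69 ± 0.13, adjusted p = 0.0419). The 8 measured bile duct cell markers, beside it, had a median of 0.16 (-0.23 with normexp background correction), and Krt19 among them had 0.79 ± 0.21 (adjusted p = 0.140, not past the threshold, with a log2 fold change of -0.13 after normexp background correction); their summed level ran from 10.5 to 29.1 in low-dose livers and from 9.36 to 22.1 in control livers, and their part in the Pkhd1 result was not tested. Zbtb32, a transcriptional repressor, rose by 1.18 ± 0.23 with overlapping groups (a log2 fold change of -0.19 with normexp background correction). Chosen after their values were seen, Chd1l, a chromatin remodeller, Mybbp1a, a nucleolar protein, and Apex1, the main endonuclease of base excision repair, rose by 0.69 ± 0.13, 0.53 ± 0.10 and 0.43 ± 0.08. Apex1 ranged from 2.39 to 2.58 in low-dose livers and from 1.81 to 2.27 in control livers.

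The genes that fell included ubiquitin ligases and their adaptors. Fbxo21, an F-box subunit that selects substrates for such a ligase, had levels of 2.58, 3.64 and 4.23 in low-dose livers, against 4.71, 4.89 and 5.24 in control livers (-1.41 ± 0.27, adjusted p = 0.0437). Fbxo31, another F-box protein, had levels of 2.27, 2.58 and 2.66 in low-dose livers, against 2.84, 3.04 and 3.24 in control livers (-0.51 ± 0.10, adjusted p = 0.0437). Neither of these genes had overlapping groups. Trim25, a ligase that acts on the RNA sensor RIG-I, fell by 0.55 on the log2 scale, and Brap, a RING ligase of the Ras pathway, by 0.60 (adjusted p = 0.0461 and 0.0419). Within the interferon-stimulated list, Trim25 was the only called member of 31, the list being 18 higher and 13 lower with a median of 0.04; Oasl1 and Ddx58, which encodes RIG-I, had 0.74 ± 0.22 and 0.45 ± 0.14 (adjusted p = 0.167 and 0.190, not past the threshold).

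The remaining falls were of mixed function. Mreg, melanoregulin, which takes part in organelle transport, had levels of -2.14, -1.85 and -1.42 in low-dose livers, against -1.20, -1.07 and -0.93 in control livers (-0.76 ± 0.11, adjusted p = 0.0128). Wrnip1, a partner of the Werner helicase at stalled replication forks, had levels of 2.69, 2.95 and 3.26 in low-dose livers, against 3.54, 3.72 and 4.02 in control livers (-0.79 ± 0.14, adjusted p = 0.0258). F5, coagulation factor V, had levels of 3.26, 3.33 and 3.45 in low-dose livers, against 3.63, 3.71 and 3.86 in control livers (-0.39 ± 0.08, adjusted p = 0.0437). Those 3 genes had separate groups. Cdkn2c, an inhibitor of the kinases CDK4 and CDK6, had levels of -1.06, -0.91 and 0.31 in low-dose livers, against 0.21, 0.48 and 1.13 in control livers (-1.23 ± 0.25, adjusted p = 0.0490). E2f8, a repressor among the E2F factors, had levels of 1.5, 1.97 and 2.74 in low-dose livers, against 2.52, 3.11 and 3.35 in control livers (-0.99 ± 0.20, adjusted p = 0.0437). Both of these overlapped, Cdkn2c through low-dose replicate 2 alone. They were the called members among 29 measured proliferation genes, of which 19 were higher and 10 lower with a median of 0.09 (-0.21 with normexp background correction).

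Hand2, a factor of hepatic stellate cells, had levels of -4.29, -4.15 and -3.82 in low-dose livers, against -3.39, -3.20 and -2.94 in control livers (-0.91 ± 0.17, adjusted p = 0.0437). These levels are dim. A second, dimmer probe over nearly the same stretch had -0.52 ± 0.23 with overlapping groups (adjusted p = 0.356 with probes tested alone in limma, not past the threshold). The 18 stellate cell and fibroblast markers were 9 higher and 9 lower with a median of -0.01 (0.17 with normexp background correction), and their summed level ran from 86.6 to 159 in low-dose livers and from 74.4 to 169 in control livers. The uncharacterised gene 1110003O08Rik, chosen after its values were seen, lies 2595 bases from Fbxo31 on mm8 and fell by 0.63 on the log2 scale. Within 20000 bases, 21 of the called genes had another measured probe under another name. Of 33 such probes, 24 had the sign of the called gene, where 54.3% of all genes tested were lower. Of the 33, 5 belonged to called genes, and 4 of these passed when probes were tested alone. Those 4 were Fbxo31 with 1110003O08Rik and Gpam with M77003, each pair counted from both sides. They passed as called genes themselves, and Gpam and M77003 are described as the same gene, so the count says nothing about neighbours.

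Mitochondrial fatty acid oxidation and ketogenesis was lower across nearly the whole list. Of 21 measured members 20 were lower, 8 of them at an unadjusted p under 0.05 (6.56% of all genes passed in that direction), none was called, and the median was -0.25 (0.03 with normexp background correction, where the direction turns). Medians of other lists also moved with that correction, up for proteasome subunits and ribosomal proteins and down for neutrophil and bile duct cell markers. The reason was not tested. The per-mouse median over members separated the groups, at -0.45, -0.23 and -0.19 in low-dose livers, against -0.17, 0.02 and 0.17 in control livers. Within slides the list's median difference ran from -0.22 to -0.28. Groups did not overlap for 5 members in this direction, against 1.05% of all genes. Eci2, which isomerises unsaturated acyl-CoA, had levels of 5.86, 6.27 and 6.35 in low-dose livers, against 6.46, 7.08 and 7.22 in control livers (-0.75 ± 0.16, adjusted p = 0.0688, not past the threshold). Cpt1a, the gate for fatty acid entry into mitochondria, had -0.69 ± 0.20 (adjusted p = 0.160, not past the threshold) with overlapping groups.

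The PPARA, peroxisomal and omega oxidation list had 18 of 20 members lower, 7 at an unadjusted p under 0.05 and none called, with a median of -0.40. Across slides the median ran from -0.17 to -0.67, and with normexp background correction it was -0.14. Acot1, an acyl-CoA thioesterase, had levels of 0.77, 2.02 and 2.32 in low-dose livers, against 2.61, 3.08 and 4.55 in control livers (-1.53 ± 0.50, adjusted p = 0.231, not past the threshold). Creb3l3, a liver factor that works with PPARA, had levels of 5.54, 5.57 and 5.82 in low-dose livers, against 5.99, 6.14 and 6.18 in control livers (-0.48 ± 0.13, adjusted p = 0.153, not past the threshold). Slc27a2, a fatty acid importer and very long-chain acyl-CoA synthetase, had -0.69 ± 0.15 (adjusted p = 0.0770, not past the threshold), at 6.28 to 6.99 in low-dose livers and 7.16 to 7.49 in control livers. The groups did not overlap for any of these 3 genes.

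**Figure D2:**
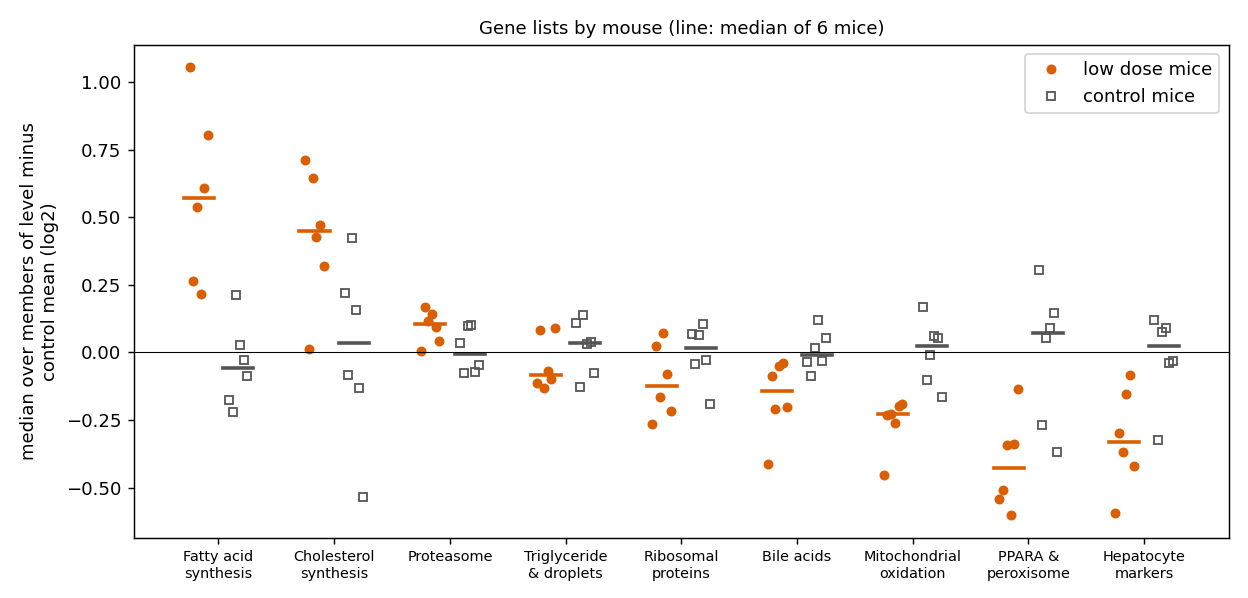
Median over list members of the level minus the mean of the control mice (log2), for each of 6 low-dose mice (filled circles) and 6 control mice (open squares); horizontal lines are group medians. The mitochondrial oxidation list has all low-dose mice between -0.45 and -0.19 and all controls between -0.17 and 0.17, while the fatty acid synthesis values of low-dose mice spread from 0.22 to 1.05.

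Bile acid synthesis and transport had 17 of 21 members lower and a median of -0.17, which turned to 0.18 with normexp background correction. Nr1h4, the bile acid receptor FXR, had -0.36 ± 0.10 and Abcb4, the phospholipid exporter of the bile canaliculus, -0.38 ± 0.12 (adjusted p = 0.160 and 0.182, not past the threshold). With normexp background correction the log2 fold change was 0.0092 for Nr1h4 and 0.023 for Amacr. Amacr, a racemase of bile acid side chains, had levels of 5.87, 6.18 and 6.22 in low-dose livers, against 6.30, 6.41 and 6.68 in control livers (-0.33 ± 0.10, adjusted p = 0.171, not past the threshold). Its groups did not overlap. Among drug-handling genes, Nr1i3, the receptor CAR, had levels of 1.01, 1.76 and 2.18 in low-dose livers, against 2.23, 2.53 and 2.79 in control livers (-0.78 ± 0.26, adjusted p = 0.231, not past the threshold), again without overlap. Cyp1a2, a cytochrome P450 of aromatic amines, had -0.74 ± 0.21 and Ephx1, microsomal epoxide hydrolase, -0.78 ± 0.26 (adjusted p = 0.160 and 0.231, not past the threshold). The 35 measured Cyp1, Cyp2 and Cyp3 list members were 16 higher and 19 lower, and of 32 phase II conjugation genes 27 were lower with a median of -0.13 (0.16 with normexp background correction).

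Nuclear receptor and hormone lists held no call. In the estrogen and steroid receptor list, 11 of 15 measured members were lower with a median of -0.08 (0.04 with normexp background correction), and Esrra, an orphan receptor of energy metabolism, had levels of 1.97, 2.07 and 2.21 in low-dose livers, against 2.24, 2.38 and 2.46 in control livers (-0.30 ± 0.10, adjusted p = 0.228, not past the threshold, with a log2 fold change of 0.037 after normexp background correction). Stat5a, which carries growth hormone signals, had levels of 0.76, 1.23 and 1.40 in low-dose livers, against 1.47, 1.55 and 1.90 in control livers (-0.48 ± 0.12, adjusted p = 0.0963, not past the threshold). Both sets of levels were separate. Irs1, the insulin receptor substrate, had -0.53 ± 0.16 with overlapping groups (adjusted p = 0.203, not past the threshold). Per2, a repressor of the circadian clock, had levels of -1.14, -0.15 and 0.69 in low-dose livers, against -2.58, -1.78 and -1.48 in control livers (1.62 ± 0.40, adjusted p = 0.0974, not past the threshold), and the clock list as a whole was 11 higher and 9 lower.

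Proteasome subunits were higher by small amounts. Of 31 members 25 were higher, 8 at an unadjusted p under 0.05 and none called, with a median of 0.07 (0.40 with normexp background correction). Psmd7, a lid subunit, had levels of 3.21, 3.36 and 3.94 in low-dose livers, against 2.76, 3.12 and 3.18 in control livers (0.38 ± 0.12, adjusted p = 0.235, not past the threshold). Cytosolic ribosomal proteins were lower in 27 of 32 members with a median of -0.11, which turned to 0.26 with normexp background correction. Of 32 urea cycle and amino acid genes 21 were lower with a median of -0.09 (0.27 with normexp background correction), and Ahcy, which splits S-adenosylhomocysteine, had 6.20, 6.36 and 6.42 in low-dose livers, against 6.50, 6.80 and 7.02 in control livers (-0.45 ± 0.14, adjusted p = 0.218, not past the threshold). Arg1, the liver arginase, had -0.23 ± 0.10 (adjusted p = 0.339, not past the threshold, with a log2 fold change of 0.12 after normexp background correction), and neither gene's groups overlapped. The 25 genes of the unfolded protein and integrated stress response were 11 higher and 14 lower, and the chaperone Hspa5 and the stress factor Ddit3 had 0.49 ± 0.20 and -0.46 ± 0.18 (adjusted p = 0.360 and 0.311, not past the threshold).

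Immune markers varied widely among mice. The 6 measured neutrophil markers of 12 summed to 1.72 to 15.9 in low-dose livers and to 1.32 to 3.46 in control livers, with a median difference of 0.41 (-0.18 with normexp background correction) and none past an unadjusted p of 0.05. Camp, Cxcr2, Elane, Mmp8, Ngp and Retnlg did not pass the filter. The per-mouse median over members ran from -0.54 to 1.72 in low-dose livers and from -0.59 to 0.56 in control livers. The linear sums include Lcn2, an acute phase protein made by hepatocytes and neutrophils, so their spread is not one of neutrophils alone. Lcn2 ran from -5.16 to 3.68 in low-dose livers and from -5.25 to -1.57 in control livers (2.73 ± 1.58, adjusted p = 0.553, not past the threshold). The difference in Lcn2 within slides ran from -1.34 to 6.54.

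The low dose was also set against the high dose, where 5 of 17680 genes passed (0.0283%). Chrna4 and Reck were the 2 genes that passed both comparisons. With slide as a fixed block 0 genes passed low dose against high dose in the limma fit (1396 at an unadjusted p under 0.05), which ends these calls in that fit. With slide as a random block 5 genes passed low dose against high dose. Chrna4 was higher in low-dose than in high-dose livers by 2.03 (adjusted p = 0.0429), the high-dose livers ranging from -1.70 to -0.45. Reck was higher by 1.23 (adjusted p = 0.00885), the high-dose livers ranging from -1.83 to -0.86. All 27 genes that rose were higher in low-dose than in high-dose livers, and 15 of the 16 that fell were lower; these counts share the low-dose arrays with the choice of the genes. For Pnpla3 the low dose minus high dose difference was 2.28 (adjusted p = 0.408), for Thrsp, a nuclear factor of lipogenesis, 1.51 (adjusted p = 0.273), for Lpin1 1.14 (adjusted p = 0.107) and for Wrnip1 -0.32 (adjusted p = 0.599), none past the threshold.

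Agreement between probes of a gene was read from the 5594 genes with 2 or more kept probes. In 68.4% of them the brightest and the second brightest probe had the same sign, with r = 0.55 across genes, which are not independent replicates. The share was 84.4% of 739 genes whose brightest probe had an unadjusted p under 0.05, 87.8% of 286 with a log2 difference over 0.5 in size, and 95.2% of 42 with one over 1. The share also differed with level. It was 74.3% of 1806 genes with both probes above the 75th percentile and 62.3% of 1426 with a second probe below a level of -3. The 178 probes spotted 5 or more times had a median SD between spots of 0.104 within an array, against 0.327 between mice of a group.

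Of the 43 called genes 20 had further kept probes, 30 in all, and 29 of these had the sign of the gene's brightest probe. Of the 30, 23 had an unadjusted p under 0.05 and 6 passed when all probes were tested alone, where 57 of 25426 probes passed (0.224%), 40 higher (0.157%) and 17 lower (0.0669%). Pde4b was called at each of its 3 probes (1.24, 1.41 and 1.45). Chrna4 passed at its second probe (1.42, adjusted p = 0.0265), as did Cdkn2c (-1.37), Wrnip1 (-0.78) and Pkhd1 (0.83). The Cdkn2c probes overlap over much of their length, and the Wrnip1 probes only at their ends. Lpin1 had 1.08 at its brightest probe and 1.09, 1.20 and 1.11 at the others, with adjusted p of 0.0711, 0.0614 and 0.0690 when tested alone. Those others lie in 1 short stretch of chromosome 12, from 16562803 to 16562942 on mm8. The probes with 1.09 and 1.20 overlap, so these are not separate readings of the gene.

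Probes differed in other called genes. Pcyt1a had 0.37 at the brightest and 0.07 at the second probe. BC026657 was the exception in sign, with 0.69 at the brightest probe and -0.47 at the second, which was dim and well above background on 3 low-dose and 2 control arrays. Of the called genes 41 were well above background on all 12 arrays at the probe used.

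**Figure D3:**
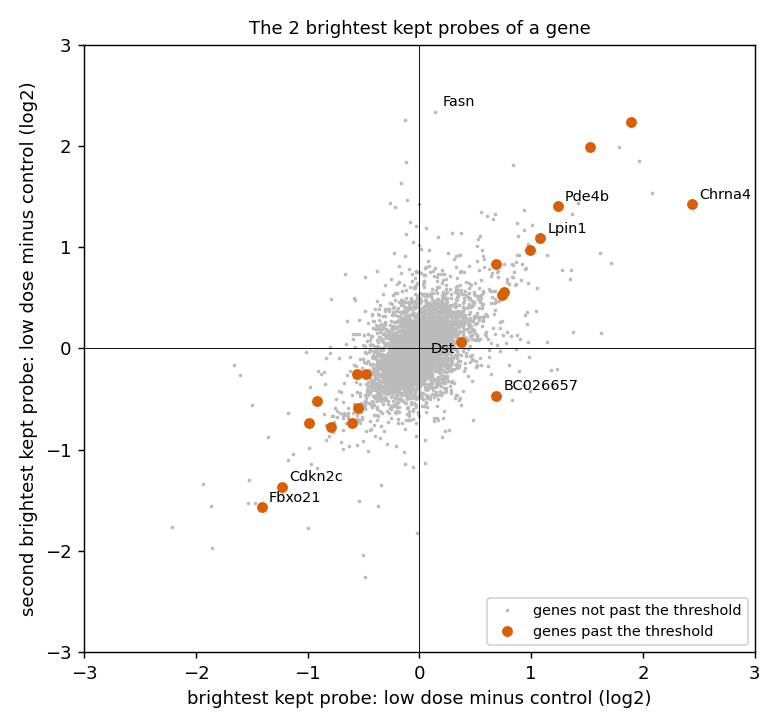
Log2 difference, low dose minus control, at the brightest kept probe (horizontal) and the second brightest kept probe (vertical) of genes with 2 or more kept probes; orange points are called genes, grey points the others, and 2 genes lie outside the range shown. The 2 probes of each called gene have the same sign except for BC026657 (0.69 and -0.47). Sizes differ in some, as in Chrna4 (2.44 and 1.42) and Pcyt1a (0.37 and 0.07). Fasn, not called, stands at 0.14 and 2.34.

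Testing probes alone added 10 probes under gene names that were not called at their brightest probe. They belonged to Acaca, Fasn, Dst, Ttc23, Nfic, Frmd8, Acacb, Syncrip, Lrrc28 and Sc5d, all were higher, and in none did the groups overlap. Acaca is no added gene, since it was already called under the transcript name ENSMUST00000103201, at a brighter probe. In some the brighter probe gave a like value. Ttc23 had 1.03 against 0.97, Frmd8 0.92 against 0.89, and Sc5d, a desaturase of cholesterol synthesis, 0.87 against 0.51. In others it did not. Dst, which encodes a large cytoskeletal linker, passed at the dimmest of its 3 probes, which was well above background on 4 low-dose and 0 control arrays and so gives no measured size, and had 0.04 at the brightest. Syncrip, an RNA-binding protein, had 0.60 at its second probe against 0.18. Acacb, the mitochondrial acetyl-CoA carboxylase, had 1.33 at its second probe against 0.67 at its brightest.

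The scanner's ceiling touched few probes but bright ones. Of 25427 kept probes 148 were saturated on at least 1 of the 12 arrays and 30 on all 12, and 137 genes were read from such a probe. More probes were saturated on more low-dose than control arrays (97) than the reverse (10), beside the brighter low-dose arrays, with 95.7 ± 19.6 saturated probes per low-dose array and 63.8 ± 23.1 per control array (SD, n = 6 each, two-sided exact permutation test, p = 0.0346). A probe at the ceiling in both groups reads the same signal whatever the RNA, so scaling each array moves it by the brightness difference. The 30 probes saturated on all 12 arrays had a median difference of -0.01 before scaling and of -0.37 after it, against 0.35 and -0.02 for the 25279 probes never saturated. No fold change can be read from them.

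**Figure D4:**
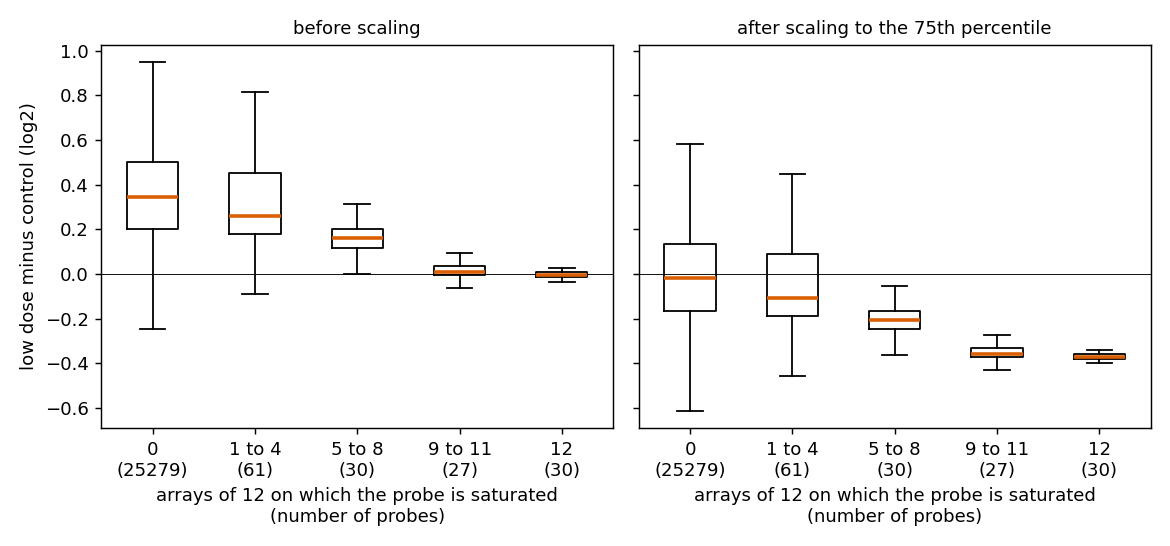
Log2 difference, low dose minus control, by the number of the 12 arrays on which a probe was saturated, before (left) and after (right) scaling to the 75th percentile; orange lines are medians, boxes quartiles, and whiskers the range without outlying points. After scaling the median goes lower with saturation, to -0.11 for 1 to 4 arrays, -0.21 for 5 to 8, -0.36 for 9 to 11 and -0.37 for 12.

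Genes with a saturated and an unsaturated probe show the same limit. There were 44, of which 33 had the same sign at both, and the median difference was -0.21 at saturated and -0.10 at unsaturated probes. Fasn, the fatty acid synthase, was saturated on 6 low-dose arrays and 1 control array at its brightest probe, where the log2 difference of 0.14 did not pass the test (adjusted p = 0.749). The ceiling limits that value mainly in the low-dose group, so the rise may be understated there. Its unsaturated probe ran from 3.51 to 5.17 in low-dose livers and from 1.36 to 2.40 in control livers (2.34 ± 0.36, adjusted p = 0.0149 among probes tested alone). C3, the central complement component, and Sod1, the cytosolic superoxide dismutase, were at the ceiling on all 12 arrays at their brightest probes. Their unsaturated probes had 0.39 ± 0.31 and 0.01 ± 0.15 (adjusted p = 0.661 and 0.982 among probes tested alone in limma, not past the threshold). Rps2, a ribosomal protein, and Mup3, a male-biased urinary protein, were saturated on 11 of the 12 arrays and had -0.05 and 0.02 at their unsaturated probes. These examples were all higher at the unsaturated than at the saturated probe, while others of the 44 were lower there.

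Among called genes only Thrsp and M77003 touched the ceiling, each on 1 low-dose array, so their rises may be understated there. Thrsp had levels of 6.59, 6.67 and 7.41 in low-dose livers, against 3.27, 4.00 and 4.86 in control livers (2.81 ± 0.41, adjusted p = 0.0128).

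Saturation reached the summaries of several lists. The scaled difference had a median of -0.38 for 9 saturated hepatocyte markers, including Alb, and of -0.02 for the 8 others, among which Asgr2, an asialoglycoprotein receptor subunit, had -0.39 ± 0.11 (adjusted p = 0.160, not past the threshold). For ribosomal proteins the medians were -0.34 for 5 saturated and -0.08 for 27 unsaturated members, of which 22 were lower. For lipoprotein genes they were -0.30 for 7 and -0.05 for 13 members. Acute phase genes differed in sign, at -0.29 for 9 saturated and 0.25 for 15 unsaturated members. The fat and sterol lists moved little. Without saturated members mitochondrial oxidation had a median of -0.24 with 19 of 20 lower, the PPARA list one of -0.41 with 17 of 19 lower, and fatty acid synthesis one of 0.67 over 18 members, and no cholesterol gene was saturated. Over all kept probes of these lists, 26 of 27 were lower in mitochondrial oxidation, 27 of 29 lower in the PPARA list, 30 of 32 higher in fatty acid synthesis and 50 of 54 higher in cholesterol synthesis.

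**Figure D5:**
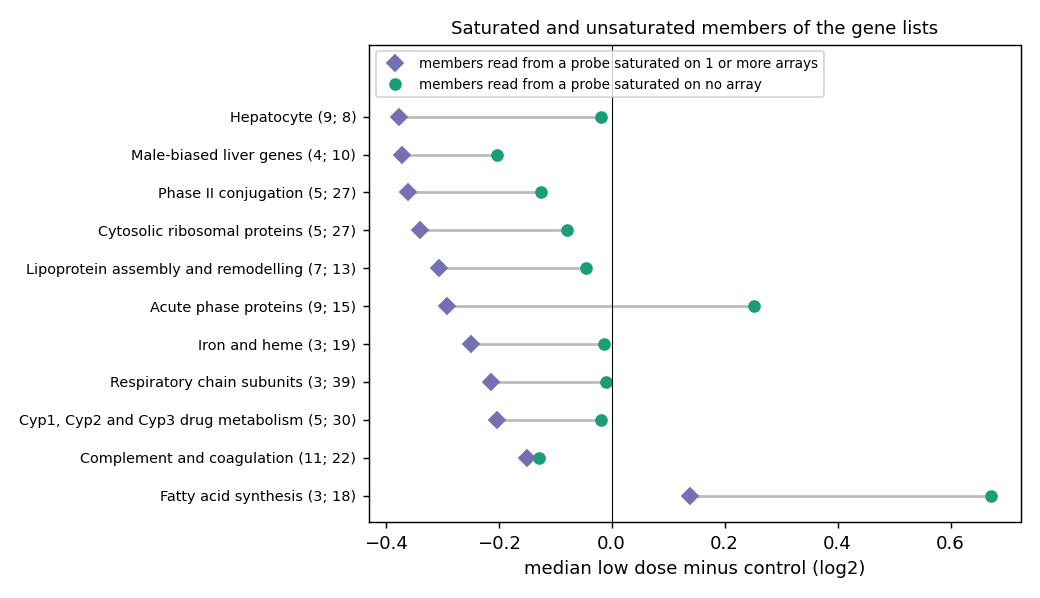
Median log2 difference, low dose minus control, of list members read from a probe saturated on at least 1 of the 12 arrays (diamonds) and of members read from a probe saturated on no array (circles), for the 11 lists with 3 or more saturated members; member counts stand in brackets, saturated first. The hepatocyte medians are -0.38 and -0.02, and the acute phase medians -0.29 and 0.25.

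At the dim end, 18 probes were well above background on all 6 low-dose arrays and on at most 1 control array, and none the other way round, beside a share of probes well above background of 60.3% ± 1.86 on low-dose arrays and 58.3% ± 1.85 on control arrays (SD, n = 6 each, two-sided exact permutation test, p = 0.0887). None of the 18 passed the test. These probes were picked by their detection in the low-dose group, so their direction follows from that choice and their tests add no separate support. A probe of Hivep3, a zinc finger factor, was well above background on no control array. With each control array set at its lowest signal well above background, the low-dose mean stood 1.40-fold above that assumed bound. This is not a measured size, and the probe did not pass the threshold (adjusted p = 0.0706 in limma). With normexp background correction the log2 fold change of Hivep3 was -0.41, so even its direction depended on the background correction.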

How the data were processed

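Single-colour Agilent mouse arrays of 18 livers were used, 6 each of low dose, high dose and control. Per the file headers and the submitters' processing notes, arrays were scanned and read with Agilent Feature Extraction 9.5, which gives a background-corrected intensity per spot (gProcessedSignal), and the notes also name limma. The deposited value table of the same arrays holds log2 values, used as an alternative. Control and outlier spots were left out, and log2 intensity minus the array's 75th percentile was averaged over a probe's spots and fitted with limma 3.58.1 in R 4.3.3 over all 18 arrays. Kept were probes that the software called well above background on 6 or more of the 18 arrays, and the brightest of a gene's kept probes stands for the gene. Adjusted p is Benjamini-Hochberg over all genes, threshold 0.05. A probe saturated on an array is one the scanner software marked so. Probe coordinates are those of the files, on mm8. Symbols were updated through RefSeq accessions, and 10 called genes keep an accession or clone name or another irregular name. Of 885 list entries in 42 lists, those under names not on the array were not analysed here. A few genes, 1 of them called, are not reported by name here.

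Members, lists and tests were chosen with earlier results of these data known. Genes named were the 15 largest rises and falls with a regular symbol, up to 3 members of each list by smallest p, called genes with several probes, and up to 10 genes each by probe disagreement, saturation, calls at a probe alone and detection in 1 group. Where replicate labels do not tell of separate litters or cages, p-values cover the spread between these mice only. The number of arrays limits precision. The fit was tested on simulated data. Alternatives covered scaling, background, filter, probe choice, saturation, slide, brightness, array weights, replicate numbers and leaving out each array.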

Additional observations from a re-analysis of the deposited data

Results flagged for a closer look

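In each group of 6 mice, a mouse was singled out where its gap to the next mouse took up more of the group's whole range than Dixon's 95% critical value. This was met in 16 of 266 groups, and chance alone gives about 1 in 20. Values are log2 levels after scaling, with the next mouse beside them where it helps.

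Low-dose replicate 1 stood apart in several. It had the highest Chrna4 level of the low-dose mice, 2.23, the next being 1.11, and the lowest Eci2 (5.86) and Amacr (5.87). It also had the lowest per-mouse median of the mitochondrial oxidation list (-0.45) and of the Cyp1, Cyp2 and Cyp3 list (-0.42) in the low-dose group. Other low-dose mice stood apart singly, replicate 2 with the highest Cdkn2c (0.31, the next being -0.69), and replicate 5 with the lowest Brap (0.35) and the highest Psmd7 (3.94).

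Among control mice, replicate 3 had the highest Pnpla3 (1.72, the next being 0.50), and replicate 4 the highest Irs1 (3.10) and Slc27a2 (7.49). Control replicate 1 had the lowest Ttc23 (2.02) and the highest per-mouse median of the NRF2 list (0.080). Control replicate 2 had the highest Ddx58 (0.82) and the lowest per-mouse medians of the hepatocyte (-0.32) and lipoprotein (-0.22) lists.

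Of the 5 genes that passed the test of low dose minus high dose, 2 had also passed low dose against control, Chrna4 with 2.03 and Reck with 1.23.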

How the results depend on the processing

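The count of called genes, 43 as reported, moved with most choices. It was 8 with array median scaling, 7 with normexp background, 50 in the deposited value table, 9 with no filter on dim probes, 70 with probes well above background on all 18 arrays, 15 with the mean of all kept probes, 79 with only low-dose and control arrays, 72 with trend and robust eBayes, 143 with array weights, 2 with slide as a fixed block and 0 with brightness as a covariate. Calls in probes tested alone, 57 as reported, were 15 with median scaling, 7 with normexp, 142 with only these 2 groups, 4 with slide fixed and 0 with brightness (1827 at an unadjusted p under 0.05). Low dose minus high dose, 5 as reported, gave 1 with normexp and 0 with slide fixed (1396 at an unadjusted p under 0.05). With slide as a random block the counts stayed near those reported, at 53 genes, 68 probes and 5 genes of low minus high dose. The share of probes well above background differed by 2.04 percentage points.

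Replicate numbers do not pair the mice: same-numbered mice correlated at -0.25, -0.14, -0.24, 0.23, 0.05 and -0.02 in their deviations. With a replicate block 5 genes, 13 probes and 0 genes of low minus high dose (1330 at an unadjusted p under 0.05) passed.

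Leaving out 1 mouse gave 2 to 62 called genes. The counts were 2, 19, 14, 62, 18 and 5 without low-dose replicates 1 to 6, and 3, 12, 28, 6, 4 and 12 without control replicates 1 to 6. All 43 genes kept their sign in these, and 39 of 43 did so with normexp. Signs of named genes that turned were, with normexp, Zbtb32 (-0.19), Gas2l3 (-0.13), 4933431E20Rik (-0.38), Nr1h4 (0.0092), Amacr (0.023), Krt19 (-0.13), Rps2 (0.0087), Esrra (0.037), Mup3 (0.010), Arg1 (0.12) and Hivep3 (-0.41). Rps2 was 0.0072 in the deposited table and C3 0.016 in the mean of probes. At an unsaturated probe C3 was 0.39, Mup3 0.019 and Sod1 0.014. With brightness Mup3 was 0.040, Dst -0.068 and Nfic -0.036, and Dst ran from -0.030 to 0.106 with a mouse left out. For the reversals other than those at unsaturated probes the cause was not tested.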
